A study of Homo sapiens with 6 samples.

Results

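The genes described here are 8 genes of blood coagulation and fibrinolysis that are tied to acute promyelocytic leukemia: F3, THBS1, PLAU, PLAUR, ANXA2, S100A10, THBD and TFPI. They were chosen by symbol and not by a rule on their values, but with earlier results of these data known. All 8 were among the 18625 genes of the deposited human table. RNA-seq measured them in NB4, a human acute promyelocytic leukemia line that carries the PML-RARA fusion. The cells were cultured for 3 days with DMSO alone (3 libraries) or with 10 μM Tan I, a diterpene of Salvia miltiorrhiza that the study examined as an inhibitor of EZH2 (3 libraries). Both groups are the same line without any engineered change, no untreated cells were included, and no source says whether the libraries of a group came from separate cultures, so every p-value measures only the spread between these libraries, which may be technical.

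Promyelocytic leukemia is known for a bleeding disorder in which clotting and clot dissolution run at the same time. Tissue factor (F3) on the leukemic cell starts the clotting cascade, TFPI blocks that start, and thrombomodulin (THBD) turns thrombin toward the anticoagulant protein C pathway. On the dissolving side, urokinase (PLAU) bound to its receptor (PLAUR) cleaves plasminogen to plasmin, and the complex of annexin A2 (ANXA2) with S100A10 holds plasminogen at the cell surface. Thrombospondin-1 (THBS1) is a secreted matrix glycoprotein that platelets release and that binds plasminogen, integrins and the receptor CD47.

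THBS1 was the only one of the 8 genes that limma called, and it was higher in Tan I. Its upstream window is shown first. Those of ANXA2 and S100A10 follow because their products form one complex, and that of F3 because its RNA hardly moved. Each sequence is the 250 bases before the RefSeq start of the gene on GRCh38.p14, written 5′ to 3′ on the strand of the gene, namely chr15:39580829-39581078 (+) for THBS1, chr15:60397987-60398236 (-) for ANXA2, chr1:151993860-151994109 (-) for S100A10 and chr1:94541760-94542009 (-) for F3. Capitals mark matches on either strand to GGGCGG (the GC box of SP1 and KLF factors), TGANTCA (AP-1), GCGTG (the core bound by AHR), TGACNNNGC (the core bound by NRF2) and TATAAA (the TATA box).
THBS1: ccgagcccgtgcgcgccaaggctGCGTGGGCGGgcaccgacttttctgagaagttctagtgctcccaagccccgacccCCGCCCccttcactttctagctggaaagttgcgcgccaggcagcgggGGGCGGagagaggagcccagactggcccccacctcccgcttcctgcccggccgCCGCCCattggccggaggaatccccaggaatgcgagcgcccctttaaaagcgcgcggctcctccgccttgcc
ANXA2: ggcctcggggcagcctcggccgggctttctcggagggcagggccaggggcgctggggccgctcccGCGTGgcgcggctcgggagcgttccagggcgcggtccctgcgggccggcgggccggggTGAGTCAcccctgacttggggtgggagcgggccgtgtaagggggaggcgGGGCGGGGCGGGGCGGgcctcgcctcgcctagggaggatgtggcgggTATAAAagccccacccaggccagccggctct
S100A10: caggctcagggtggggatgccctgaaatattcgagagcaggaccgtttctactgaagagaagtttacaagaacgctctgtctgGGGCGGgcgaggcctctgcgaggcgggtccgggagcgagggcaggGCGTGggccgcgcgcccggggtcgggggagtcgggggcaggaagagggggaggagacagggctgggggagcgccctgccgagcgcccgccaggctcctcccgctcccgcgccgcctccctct
F3: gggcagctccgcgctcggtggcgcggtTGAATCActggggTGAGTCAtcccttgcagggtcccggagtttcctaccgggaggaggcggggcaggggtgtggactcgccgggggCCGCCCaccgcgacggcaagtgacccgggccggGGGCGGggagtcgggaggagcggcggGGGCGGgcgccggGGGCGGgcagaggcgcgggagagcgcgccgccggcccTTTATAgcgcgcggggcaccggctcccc
The THBS1 window held 4 matches to the GC box and 1 to the AHR core, which shares a base with a GC box, and no match to the other motifs. The ANXA2 window held 3 GC boxes that run into each other, with 1 match each to the AP-1, AHR and TATA motifs. In S100A10 there were 1 GC box and 1 AHR core, and in F3 there were 4 GC boxes, 2 AP-1 motifs and 1 TATA box. Among the 35116 RefSeq windows of the same length, 42.6% held a GC box, 6.57% an AP-1 motif, 32.2% an AHR core, 10.9% an NRF2 core and 10.7% a TATA box. RefSeq windows were found for 7 of the 8 genes, and a match is a run of letters, not a measured site.

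The libraries held 25356503 to 31679138 reads on the listed genes in DMSO and 21502760 to 24298627 in Tan I. The first principal component (PC1) held 70.8% of the variance of the 16887 genes tested. On it, DMSO replicate 2 (41.1) and Tan I replicate 3 (71.6) had the highest scores. The other libraries were spread from -48.0 to 8.65, with Tan I replicate 2 at 8.65 and DMSO replicate 3 at -26.7. The 5 promyelocyte markers in the table were present in every library, but their sum was 70959 to 76923 normalized counts with DMSO and 41825 to 50123 with Tan I. Of these, MPO fell from a mean of 62588 to 36602 and CTSG from 1909 to 1199 (limma, unadjusted p-values 0.000988 and 0.0262, adjusted p-value 0.999 for both). AZU1 (3864 and 3279), PRTN3 (1992 and 1634) and CD33 (3712 and 3903) were not called. For markers of other cells, the sums ran from 102 to 174 in DMSO and 118 to 153 in Tan I for monocytes (3 of 6 markers in the table), from 25 to 41 and 13.3 to 25.4 for endothelium (2 of 5), from 74.2 to 119.6 and 65.5 to 112 for fibroblasts (1 of 5), from 307 to 519 and 336 to 629 for T and B cells (3 of 4) and from 8.60 to 18.6 and 10.8 to 25.3 for liver (1 of 3). The 3 erythroid markers were absent from the table and so were not analysed. Platelet markers are given beside THBS1.

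The values are reads per gene over the size factor of the library, called normalized counts here. The comparison of Tan I with DMSO was made with limma on log2(normalized count + 1) over all 16887 genes with a mean of at least 10, and a gene was called where p was at most 0.05 before adjustment and the log2 fold change was 0.25 or more in either direction, the thresholds of the study. Under this rule limma called 1 of the 8 genes, THBS1, against 2.42% of all genes tested (1.32% higher and 1.10% lower in Tan I). THBS1 was also the 1 called gene of the 8 in edgeR, where 2.42% of all genes were called, and in DESeq2 with 2.49%. With Benjamini-Hochberg adjustment over all genes tested, limma called 0 of the 8 and 0% of all genes; without adjustment 410 genes had a p-value of at most 0.05 at any fold, edgeR also called 0 genes with adjustment and DESeq2 called 16. The adjusted p-value from limma was 0.999 for each of the 8 genes. Of the 8 fold changes 6 were positive, where 8393 of the 16887 over all genes tested were. The median of the 8 was 0.19 on the log2 scale, where the median of all genes tested was -0.0016.

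**Figure D1:**
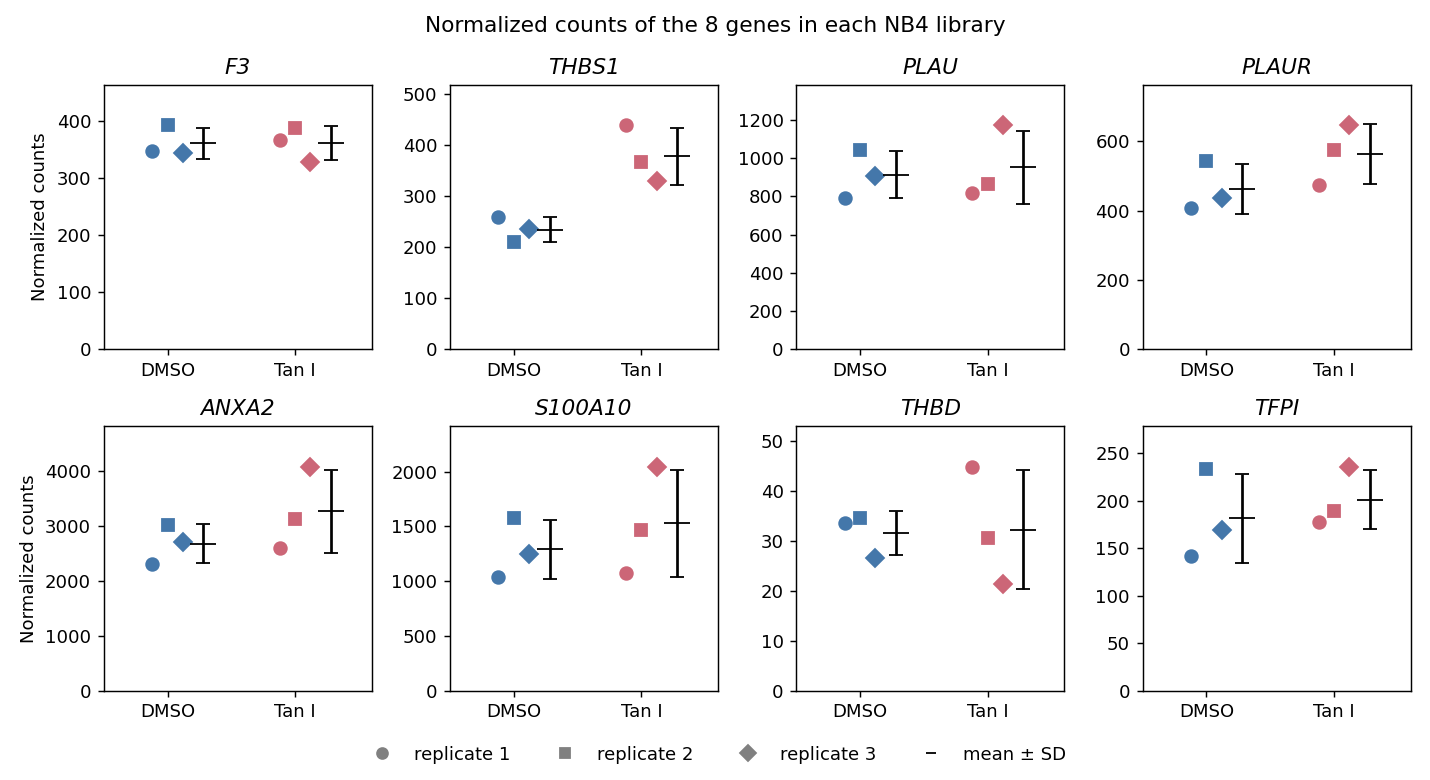
Normalized counts (y axis, from 0, a separate scale in each panel) of the 8 genes in 3 DMSO libraries (blue) and 3 Tan I libraries (red); the marker shape gives the replicate number, and the black bar the mean ± SD of each group (n = 3). The groups are apart only for THBS1, where the highest DMSO library had 258 and the lowest Tan I library 329 normalized counts.

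Each of the 3 Tan I libraries had more THBS1 (ENSG00000137801) than the highest of the DMSO libraries. It had 258, 210.0 and 235 normalized counts in DMSO replicates 1, 2 and 3 and 439, 367 and 329 in Tan I replicates 1, 2 and 3. The highest value was that of Tan I replicate 1 and the lowest that of DMSO replicate 2, and the groups did not overlap; THBS1 was the only one of the 8 genes with separate groups, while 3.92% of all genes tested lay fully higher in Tan I, 3.97% fully lower and 7.89% either way. The means were 234 ± 24.2 and 378 ± 55.6 normalized counts (SD, n = 3 each), a ratio of 1.61. Its log2 fold change was 0.68 (standard error 0.16, 95% confidence interval 0.30 to 1.07), and limma gave an unadjusted p-value of 0.0037 and an adjusted p-value of 0.999. The exact two-sided permutation test gave p = 0.1, the smallest that 3 libraries against 3 allow. Of all genes tested, 1.13% had a fold change as high or higher. That THBS1 differed in these libraries was known when the 8 genes were chosen. In bulk RNA, more cells with THBS1 RNA and more THBS1 RNA per cell cannot be told apart.

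The THBS1 call was kept with any single library left out. With each library left out in turn, its log2 fold change stayed between 0.57 (without Tan I replicate 1) and 0.78 (without Tan I replicate 3). Without DMSO replicate 2, where 2.76% of all genes were called, it was 0.61, and with both DMSO replicate 2 and Tan I replicate 3 left out (2.82%) it was 0.70. With PC1 as a covariate it was 0.76 with an adjusted p-value of 0.00173 from limma. In that setting 1.15% of all genes passed the adjusted threshold, against 0% in the main fit. PC1 was computed from these same libraries and genes but entered as known, so this p-value leaves out the uncertainty of PC1. Over the 18 alternatives the adjusted p-value ran from 0.00173 to 1.0 and was at most 0.05 only with PC1 as a covariate. Within each group, THBS1 was lowest in the library with the highest PC1 score.

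Platelets and their precursors are rich in thrombospondin-1. Of 6 markers of these cells, ITGA2B and GP1BA were in the table, and their sum was 1263 to 1474 normalized counts with DMSO and 1478 to 1734 with Tan I. ITGA2B rose from 1088 ± 34.7 to 1387 ± 47.8 (SD, n = 3 each; unadjusted p-value 0.0101 and adjusted p-value 0.999 from limma), while GP1BA had 299 ± 145 and 211 ± 174 with overlapping groups. Their part in the THBS1 result was not tested.

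On GRCh38, THBS1 occupies positions 39581079 to 39599466 of chromosome 15 (+ strand), with 22 exons and 7789 bases in the canonical GENCODE release 44 transcript. The protein-coding gene FSIP1 and the antisense RNA THBS1-AS1 overlap it on the other strand. FSIP1 had 5.86 to 15.4 normalized counts, and 0.327% of the windows of 150 bases in the THBS1 transcript stood in THBS1-AS1. No strand setting is given for the counting. The other 7 genes lie at 94529173 to 94541759 of chromosome 1 (F3, - strand), 151982915 to 151993859 of chromosome 1 (S100A10, -), 187464230 to 187565760 of chromosome 2 (TFPI, -), 73909177 to 73917496 of chromosome 10 (PLAU, +), 60347134 to 60402883 of chromosome 15 (ANXA2, -), 43646095 to 43670547 of chromosome 19 (PLAUR, -) and 23045633 to 23049672 of chromosome 20 (THBD, -), the last with a single exon.

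F3, the gene of tissue factor, differed least between the groups. Its normalized counts were 347, 392 and 344 in DMSO and 367, 388 and 328 in Tan I, in the order of the replicate numbers. The highest value was in DMSO replicate 2 and the lowest in Tan I replicate 3, with the others in between. The group means were 361 ± 27.0 and 361 ± 30.3 (SD, n = 3 each). The log2 fold change was -0.0012 with a standard error of 0.14 (limma, unadjusted p-value 0.993, adjusted p-value 0.999). The 95% confidence interval, -0.32 to 0.32, corresponds to 0.802 to 1.25 times the DMSO level, so a change within these bounds remains compatible with these libraries. F3 also had the smallest spread of the 8 genes, a coefficient of variation within groups of 7.95% where counting alone gives 5.30%.

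TFPI, the inhibitor of the tissue factor pathway, had 142, 233 and 169.6 normalized counts with DMSO and 178, 189.7 and 236 with Tan I. DMSO replicate 2 and Tan I replicate 3 were nearly level at the top, and the groups overlapped. The log2 fold change was 0.17 with a standard error of 0.22 (limma, unadjusted p-value 0.477, adjusted p-value 0.999), and it ranged from 0.0065 without DMSO replicate 1 to 0.36 without DMSO replicate 2. THBD, whose product is thrombomodulin, was the lowest of the 8 genes, with 33.6, 34.7 and 26.6 normalized counts with DMSO and 45, 30.6 and 21.3 with Tan I. Its highest and its lowest value were both in Tan I libraries, replicates 1 and 3. With 16 to 46 reads per library, counting alone gives THBD a coefficient of variation of 18.4%, and the observed one was 27.9%. The 95% confidence interval of its log2 fold change ran from -0.81 to 0.76, so a fall to 0.570 or a rise to 1.70 times the DMSO level lay within it.

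The urokinase receptor PLAUR had the next largest fold change after THBS1, without passing the test. Its values were 407, 542 and 436 normalized counts with DMSO and 473, 573 and 645 with Tan I. DMSO replicate 2 lay above Tan I replicate 1, so the groups overlapped. The log2 fold change was 0.29 with a standard error of 0.17 (95% confidence interval -0.12 to 0.69; limma, unadjusted p-value 0.137, adjusted p-value 0.999). Without Tan I replicate 1 it was 0.41 and PLAUR was called without adjustment, but 8.86% of all genes tested were called in that setting. Without Tan I replicate 3 it was 0.18.

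Urokinase itself, PLAU, had 794, 1041 and 906 normalized counts with DMSO and 816, 866 and 1172 with Tan I. The groups overlapped over most of their range, and DMSO replicate 2 was second only to Tan I replicate 3. Its log2 fold change was 0.048 with a standard error of 0.18 (limma, unadjusted p-value 0.792, adjusted p-value 0.999). The annotated RNA gene C10orf55 overlaps PLAU on the other strand and had 7.71 to 35.2 normalized counts.

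Annexin A2 was the most abundant of the 8 genes in reads. ANXA2 had 2297, 3009.9 and 2704 normalized counts with DMSO and 2587, 3126 and 4075 with Tan I. Tan I replicate 3 was far above the rest, while Tan I replicate 1 lay below DMSO replicates 2 and 3. The log2 fold change was 0.27 with a standard error of 0.19 (limma, unadjusted p-value 0.190, adjusted p-value 0.999). It was 0.10 without Tan I replicate 3 and reached 0.43 without Tan I replicate 1, where ANXA2 was called without adjustment along with 8.86% of all genes tested. The processed pseudogene ANXA2P2 on chromosome 9 holds 115 of the 1405 windows of 150 bases in the canonical ANXA2 transcript (8.19%) without a mismatch. Reads that mapped to several locations had been removed by the authors, so reads within these windows may be missing from ANXA2 in every library; ANXA2P2 itself had 8.39 to 16.4 normalized counts.

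S100A10, the partner of annexin A2 in the plasminogen receptor, had 1042, 1578 and 1248 normalized counts with DMSO and 1076, 1467 and 2047 with Tan I. Its libraries stood in exactly the order of their PC1 scores, from DMSO replicate 1 and Tan I replicate 1 at the bottom to DMSO replicate 2 and Tan I replicate 3 at the top. The Tan I libraries alone spanned 1.90-fold, against a ratio of the group means of 1.19. Its log2 fold change was 0.22 with a standard error of 0.25 (limma, unadjusted p-value 0.417, adjusted p-value 0.999), and without Tan I replicate 3 it was -0.016.

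**Figure D2:**
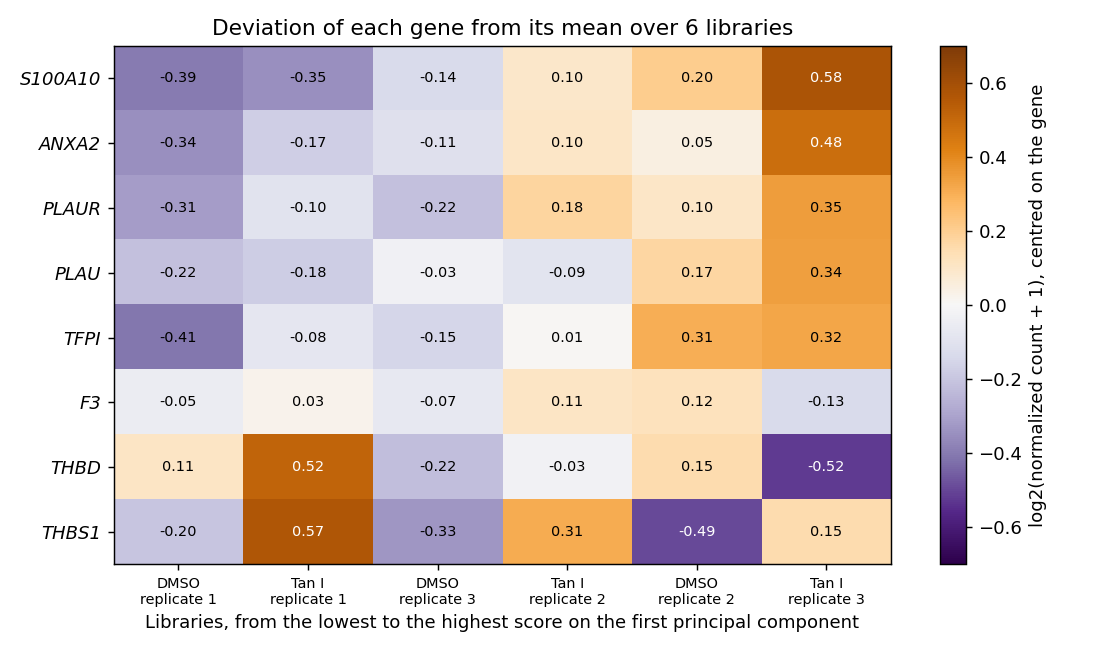
Deviation of log2(normalized count + 1) from the mean of each gene over the 6 libraries (color and printed value, log2 units), with the libraries ordered from left to right by their PC1 score. S100A10 goes from -0.39 to 0.58 along this order, F3 stays between -0.13 and 0.12, and THBS1 is below 0 in every DMSO library and above 0 in every Tan I library.

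In 5 of the 8 genes (PLAU, PLAUR, ANXA2, S100A10 and TFPI), DMSO replicate 2 was the highest DMSO library and Tan I replicate 3 the highest Tan I library; 35.0% of all genes tested had both. F3, THBD and THBS1 had their lowest Tan I value in that replicate 3. How many of all genes tested share this, or the orders of S100A10 and THBS1 along PC1 given above, was not counted. For ANXA2 and S100A10, the spread within a group (coefficients of variation of 18.9% and 27.0%) was far above what counting gives (1.85% and 2.71%). PC1 was computed from all genes tested, these included.

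Ratios within a library do not depend on its size factor, and 3 were taken after the values had been seen. Per kb of canonical transcript, PLAU stood to PLAUR as 1.14, 1.12 and 1.21 in DMSO and as 1.01, 0.882 and 1.06 in Tan I, so that every Tan I library lay below every DMSO library (log2 difference -0.24; exact two-sided permutation test, p = 0.1, adjusted over the 3 ratios 0.3). ANXA2 stood to S100A10 as 0.904 ± 0.0696 under DMSO and 0.939 ± 0.0908 under Tan I (SD, n = 3 each), and these groups overlapped (exact permutation test, p = 0.6). F3 stood to TFPI as 3.45 ± 0.644 and 3.08 ± 0.643 (SD, n = 3 each; exact permutation test, p = 0.7). The groups of F3 to TFPI overlapped as well. With 3 libraries against 3 the exact test cannot go below 0.1, so it decides for none of the 3 ratios. The adjustment over 3 does not cover their choice after the values had been seen. How many other gene pairs have ratios with separate groups was not counted. Of single genes tested, 7.89% had groups that did not overlap.

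Levels were compared between genes as normalized counts per kb of canonical transcript, over the 6 libraries. S100A10 (2101 ± 562) and ANXA2 (1909 ± 399) were highest and overlapped each other. PLAU (398 ± 62.4) and PLAUR (375 ± 65.9) formed the next pair and also overlapped. F3 (157 ± 11.2) lay below every library of these and above every library of TFPI (49.6 ± 9.60). TFPI and THBS1 (39.3 ± 11.3) overlapped in the Tan I libraries (46.1 to 61.2 and 42.3 to 56.3), whereas with DMSO every THBS1 value (27.0 to 33.2) lay below every TFPI value (36.7 to 60.4). THBD (7.91 ± 1.99) was below all others in each library (SD, n = 6 each). The canonical S100A10 transcript has only 671 bases, and the fragment length, which affects values per length most in short transcripts, is not given in the sources used here.

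A wider list of coagulation and fibrinolysis genes was read for comparison, of which 56 symbols are reported, 33 were in the table and 31 were tested. Limma called 0 of these 31 with or without adjustment (2.42% of all genes without it), edgeR called 0 and DESeq2 called 1 without adjustment (P4HB); their median log2 fold change was 0.040, with 17 of 31 positive. Every Tan I library was above every DMSO library for 2 of the 31, P4HB and SERPINE2, where 3.92% of all genes had this; SERPINE2 is named after its values were seen. SERPINE2, a protease inhibitor that acts on thrombin and urokinase, had means of 2362 ± 71.7 (DMSO) and 2659 ± 51.0 normalized counts (Tan I; SD, n = 3 each), and its log2 fold change of 0.17 did not pass the test (limma, unadjusted p-value 0.122, adjusted p-value 0.999).

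**Figure D3:**
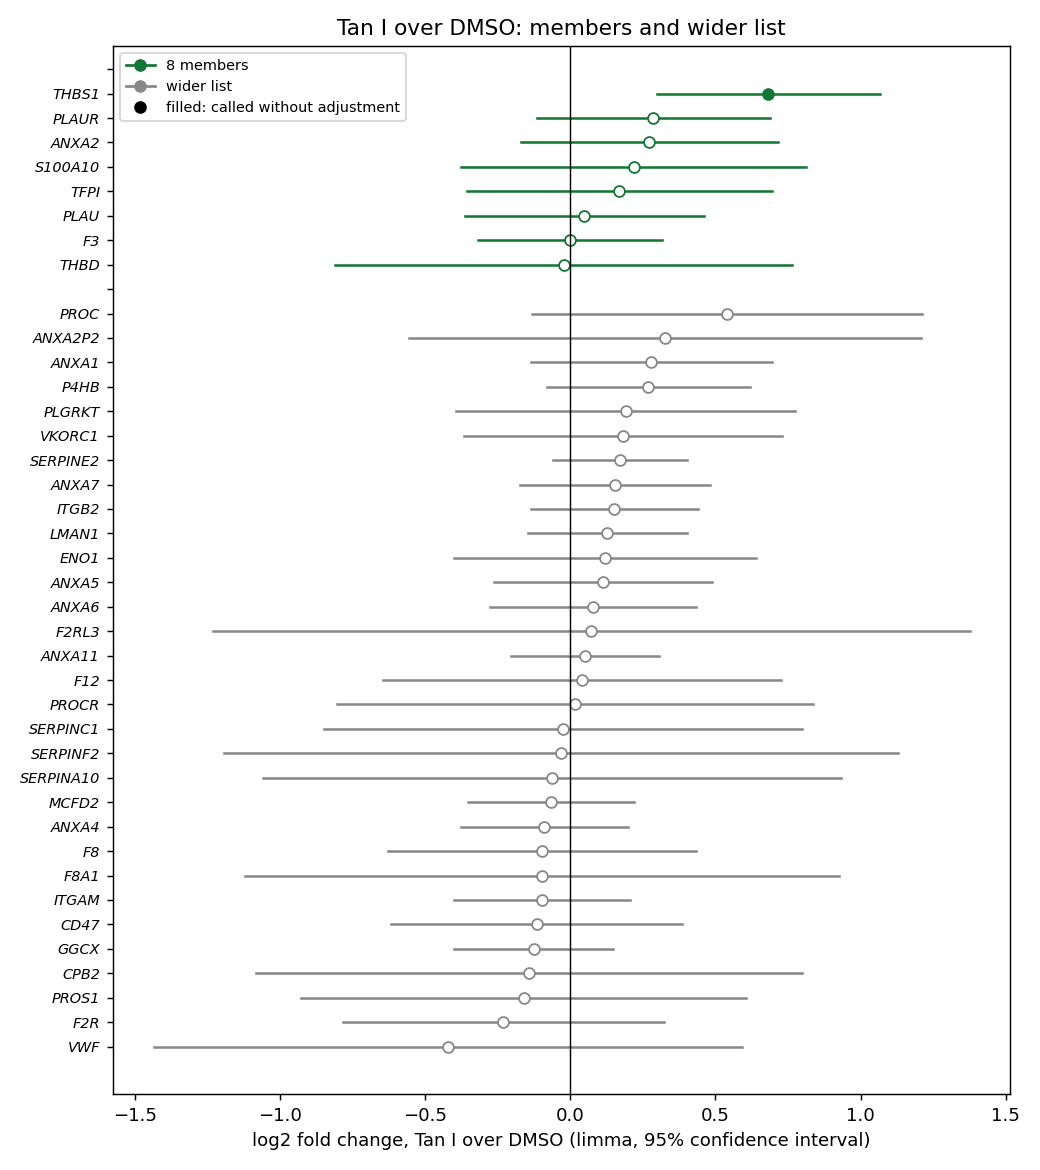
Log2 ratio of Tan I to DMSO (fold change, x axis) with its 95% confidence interval from limma for the 8 genes (green) and 31 tested genes of the wider list (gray); filled points were called without adjustment. Only the interval of THBS1 (0.30 to 1.07) lies fully above 0, and none lies fully below.

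By role, 0 of the 3 coagulation factors, 0 of the 2 thrombin receptors and 0 of the 6 anticoagulants tested were called, and their fold changes ran from -0.42 to 0.54 on the log2 scale. Annexin A5, which shields the phospholipids that clotting needs, had means of 2448 ± 357 (DMSO) and 2649.9 ± 399 normalized counts (Tan I; ANXA5, log2 fold change 0.11, standard error 0.16). The thrombin receptor F2R had 65.6 ± 12.6 and 55.4 ± 7.26, with overlapping groups. Of 5 genes of fibrinolysis tested and reported, 0 were called, ENO1 among them, whose enolase also binds plasminogen at cell surfaces (36051 ± 5999 and 39588 ± 9879). PLG, PLAT, SERPINB2, F13A1 and CD36 were absent from the deposited table and so were not analysed.
Of 3 partners of the urokinase receptor and of thrombospondin tested, 0 were called. ITGAM, the integrin subunit CD11b, had means of 484 ± 45.3 (DMSO) and 451 ± 23.5 normalized counts (Tan I). A further partner, LRP1, was too low to be tested, with a mean of 9.16 normalized counts and 5 to 14 reads per library. Its Tan I libraries all lay below its DMSO libraries, as in 3.97% of all genes tested, and it is named after its values were seen. The 6 genes listed under processing of clotting factors gave 0 calls, and F8A1 was listed there without a known part in processing. P4HB, a protein disulfide isomerase, had means of 29552 ± 961 (DMSO) and 35763 ± 4442 normalized counts (Tan I), with every Tan I library above every DMSO library, but its log2 fold change of 0.27 (standard error 0.15) was not called because of its p-value (limma, unadjusted p-value 0.114, adjusted p-value 0.999). LMAN1, which carries clotting factors out of the endoplasmic reticulum, had 4449 ± 239 and 4872 ± 453 (SD, n = 3 in each group). The annexin paralogs and ANXA2P2 gave 0 calls of 6, from -0.089 to 0.33.

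**Figure D4:**
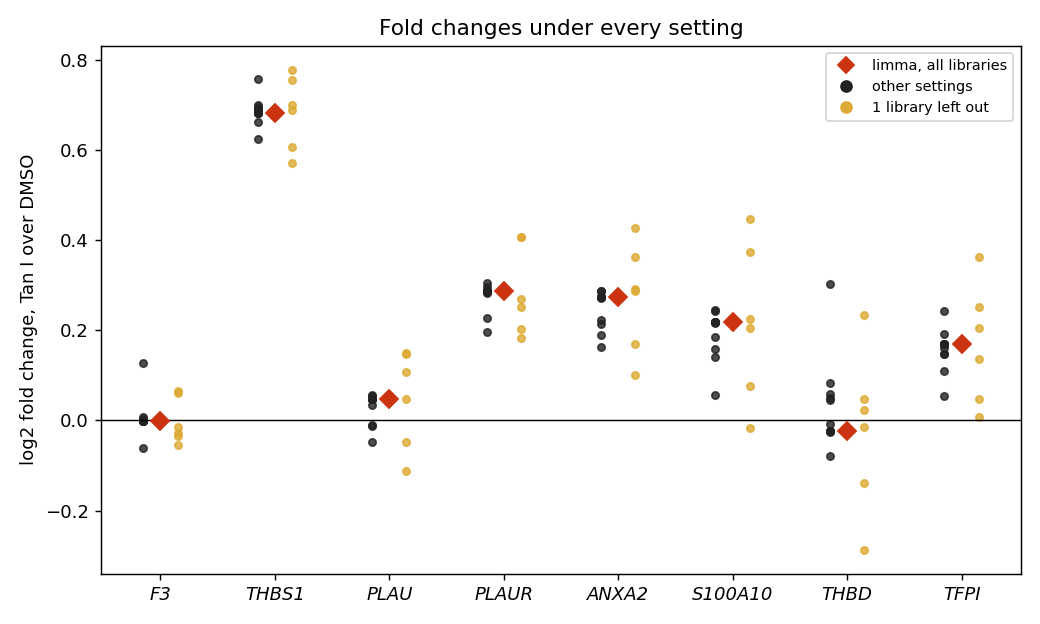
Log2 ratio of Tan I to DMSO (fold change, y axis) of the 8 genes with all libraries (red diamonds), under the other settings (black) and with 1 library left out (yellow). THBS1 stays between 0.57 and 0.78, while F3, PLAU, S100A10 and THBD cross 0.

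The genes closest in pattern were sought among 12620 others with a mean of at least 50 normalized counts, by the root mean square difference of log2 values centred on each gene over the 6 libraries. For THBS1 they were TIPARP (0.113 log2 units) and ADAMTS7 (0.144), for F3 TAF6L (0.0240) and HAUS6 (0.0279), and for ANXA2 FTH1 (0.0189) and H3F3B (0.0210). For S100A10 they were COA4 (0.0138) and NDUFB5 (0.0192), for PLAU APEH (0.0245) and NOB1 (0.0270), for PLAUR PSMD12 (0.0320) and HOXC10 (0.0323), and for TFPI CYP2R1 (0.0347) and ARHGAP30 (0.0417). Among the 8 genes, the closest pair was PLAUR and ANXA2 (0.0863), and THBS1 and S100A10 were the farthest apart (0.520). Even so, ANXA2 was only number 338 in closeness to PLAUR among the 12620 others, and PLAUR only number 419 in closeness to ANXA2. THBD was below the mean of 50 and was not compared.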

How the data were processed

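RNA-seq libraries of NB4 cells (3 treated with DMSO, 3 with 10 μM Tan I, 3 days) were grouped by the sample labels. Per the methods of the paper, STAR was used by the authors for alignment to GRCh38, multi-mapping reads were discarded and featureCounts gave reads per gene; versions, annotation and strand setting are not given in the sources used here. The authors deposited normalized counts (signal, reads divided by a size factor per library) for 18625 genes. The same deposited file carries a comparison by the authors (log2 fold change with its error, Wald score, p-value and adjusted p-value), which was left out. All deposited values (100%, within 0.001) came out as whole reads once the size factors were found.

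The main test was limma 3.58.1 (R 4.3.3, eBayes with trend) on log2(normalized count + 1), treatment as the only term, for 16887 genes with a mean of at least 10; fold changes of low genes are understated on this scale. P-values were adjusted over all of them by Benjamini-Hochberg. Alternatives were pseudocounts of 0.1 and 10, no filter, a mean of at least 50, equal totals, quantile normalization, no trend, edgeR 4.0.16 and DESeq2 1.42.0 on the recovered reads, the replicate block, libraries left out, and PC1 as a covariate. Functions were tested on simulated data. Named beside the 8 genes were called genes of the wider list, its 3 highest means, 8 genes set by name and the closest in pattern; P4HB, ENO1 and LMAN1 came in by their means. Of the wider list, 1 gene is not reported here, and counts over the list are without it. ITGA2B, GP1BA and the promyelocyte genes come from marker lists, and overlapping genes from GENCODE release 44, which held 99.6% of the identifiers. The genes, lists and alternatives were chosen with earlier results of these data known, and the ratios after the values had been seen.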

Additional observations from a re-analysis of the deposited data

How the results depend on the processing

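Under each of the 18 alternatives THBS1 was called without adjustment and kept its direction. TFPI, PLAUR and ANXA2 had positive fold changes in each, from 0.0065 to 0.36, 0.18 to 0.41 and 0.10 to 0.43 log2 units, and none passed an adjusted threshold. The count over all genes, 408 without adjustment, was 1496 with PC1 as a covariate and ran from 160 to 1496 with a library left out (lowest without Tan I replicate 2, highest without Tan I replicate 1). With adjustment it was 0 in limma, 16 in DESeq2, 2 without both DMSO replicate 2 and Tan I replicate 3, and 194 with PC1. The number of the 8 genes called, 1, ran from 1 to 3 with a library left out (3 without Tan I replicate 1: ANXA2, PLAUR and THBS1). The number of the reported wider list called, 0, was 1 in DESeq2 (P4HB), 1 without both libraries (ANXA1) and 1 with PC1 (F8A1). Of all genes tested, 2.49%, 2.82% and 8.86% were called in these settings. With a library left out the number ran from 0 to 2. It was 2 without DMSO replicate 2 (ANXA1 and PROC), where 2.76% of all genes were called, and 1 without Tan I replicate 1 (P4HB), where 8.86% were. The causes were not tested.

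Fold changes near 0 changed sign, in log2 units. F3 was 0.0067 with quantile normalization, 0.0023 in DESeq2 and 0.13 without both libraries, and -0.055 to 0.066 with a library left out. PLAU was -0.011 with equal totals, -0.013 without both libraries and -0.048 with PC1, and -0.11 to 0.15 with a library left out. THBD was 0.058 with quantile normalization, 0.044 in edgeR, 0.049 in DESeq2, 0.30 without both libraries and 0.084 with PC1, and -0.29 to 0.23 with a library left out. S100A10 ran from -0.016 to 0.45 and ENO1 from -0.071 to 0.28 with a library left out, and ENO1 was -0.0047 with PC1. THBD had no value at a mean of at least 50.

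The deviations of libraries with the same replicate number correlated at 0.751 for replicate 1, but at -0.0881 and -0.451 for replicates 2 and 3. The numbers were therefore not taken to pair the samples. Across the groups, the highest correlation was that of DMSO replicate 2 with Tan I replicate 3, at 0.758. With the replicate block the unadjusted count was 348 genes and the adjusted count 0; the 348 held 1 of the 8 genes and 0 of the reported wider list, as without the block.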
